A study of Mus musculus with 24 samples.

Results

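The report concerns 7 genes that are known to mark mature oligodendrocyte (OL) subtypes of the spinal cord: Ptgds, Car2, Apod, Il33, Hopx, Anxa5 and Serpinb1a. They were listed by name as known markers, by a rule that uses no measured value but was written with earlier results of these data known, and are 7 of the 21965 genes in the count table. All of them were tested. The study profiled OL-Ribotag mice (rpl22HA with a tamoxifen-inducible Cre, C57Bl/6 background), in which tamoxifen turns on an HA-tagged ribosomal protein in mature OLs. The animals were female per the labels, which give an age of 10 to 12 weeks in the injury protocol. Every group, naive controls included, carried both alleles and received tamoxifen. Naive mice had no injury, and the other 3 groups received a 50 kdyn contusion at T9 and were taken on day post-injury (dpi) 2, 10 or 42. The cord tissue of 2 mice was pooled, with 3 pools in a group. All cord RNA (total RNA) and the RNA immunoprecipitated with tagged ribosomes (OL) of a pool were sequenced separately, which gave 24 libraries in 8 groups of 3. Naive and dpi 42 tissue was collected on the same day, which matches naive mice to dpi 42 in age and time since tamoxifen. The dpi 2 and dpi 10 mice were younger and nearer to tamoxifen than the naive mice, so for each change on these days injury and age cannot be told apart.

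The Cre driver is also active in Schwann cells, so OL libraries are enriched for OL RNA and are not pure. The paper also found microglia and macrophage transcripts in OL libraries after injury, and filtered its OL changes for this. No such filter was applied here. The 8 microglia and macrophage markers summed to 10.7 to 16.7 CPM in naive OL libraries. They reached 70.3 to 91.6 CPM on dpi 2, 223 to 256 CPM on dpi 10 and 135 to 231 CPM on dpi 42. Their part in OL changes was not tested. The naive OL libraries held 128814 to 173680 CPM (counts scaled to library size) of 12 compact myelin and OL identity genes, against 23764 to 29542 CPM in naive total RNA. The 8 astrocyte markers summed to over 7000 CPM in 5 of the 12 OL libraries: naive library 3, dpi 2 library 3, dpi 10 library 2 and the dpi 42 libraries 2 and without a number. Their range there was 7705 to 14846 CPM, against 2284 to 4193 CPM in the other 7. Pool 2 of dpi 2 held 2414 and 2604 Y-linked counts, against at most 13 in the 22 other libraries. The titles and descriptions of 2 dpi 42 libraries disagree on the kind of RNA, and the descriptions were followed. Their myelin sums stood with the kind of RNA the descriptions name, since the dpi 42 ranges were 113759 to 149331 CPM for OL and 22441 to 24809 CPM for total RNA. Schwann cell markers summed to 96.8 to 762 CPM in naive OL libraries and 1319 to 1498 CPM on dpi 42, and neutrophil markers to at most 17.7 CPM in any OL library. Libraries held 25840127 to 32987841 counts.

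Mature OLs do not form a uniform population. In the mouse cord, subtypes differ by level of a small set of genes, and a pair of them, marked by Ptgds and by Klk6, take different shares of grey and white matter. Ptgds encodes the lipocalin-type prostaglandin D2 synthase, which OLs share with leptomeningeal fibroblasts. Apod is a secreted lipocalin that carries lipids, and Car2 is the cytosolic carbonic anhydrase of OLs. Il33 is a nuclear cytokine released on cell damage, Hopx is a small homeodomain protein that does not bind DNA, Anxa5 binds phosphatidylserine in the presence of calcium, and Serpinb1a inhibits neutrophil-type serine proteases inside cells.

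The promoters of Apod and Ptgds are shown because these members had the largest rise in OL RNA and the largest loss of OL enrichment. Each window runs 5′ to 3′ on the gene's strand, from 250 bases before to 50 bases after the start in RefSeq (GRCm38.p6). The Apod window is chr16:31314759-31315058 (minus strand) and the Ptgds window is chr2:25469700-25469999 (minus strand). Capitals mark a match to a motif searched on both strands. The motifs were TGA followed by any base and TCA (AP-1 type), TTCNNNGAA (STAT type) and TATAAA, the core of the TATA box.
Apod: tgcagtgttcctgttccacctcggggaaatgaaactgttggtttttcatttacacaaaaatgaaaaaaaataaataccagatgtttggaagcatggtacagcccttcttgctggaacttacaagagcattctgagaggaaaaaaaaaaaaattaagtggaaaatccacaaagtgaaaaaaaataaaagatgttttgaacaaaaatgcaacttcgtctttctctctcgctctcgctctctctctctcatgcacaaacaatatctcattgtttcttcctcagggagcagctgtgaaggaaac
Ptgds: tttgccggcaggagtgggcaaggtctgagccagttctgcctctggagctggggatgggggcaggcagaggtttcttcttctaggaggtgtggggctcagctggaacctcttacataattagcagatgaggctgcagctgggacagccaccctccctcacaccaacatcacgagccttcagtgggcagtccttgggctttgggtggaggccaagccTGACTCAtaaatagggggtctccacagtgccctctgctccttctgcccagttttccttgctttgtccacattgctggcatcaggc
The Ptgds window held 1 AP-1 type match, 35 bases before the start, and the Apod window held no match to any of the 3. Windows were at hand for 5 of the 7 members, 7 windows in all, with none for Car2 and Serpinb1a. The windows of Anxa5 and Hopx held no match, and both Il33 windows held TATAAA. Among all 32851 windows of this length, 7.81% held the AP-1 type motif, 8.3% the STAT type motif and 13.6% the letters TATAAA. A match is a description of the letters only.

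In naive OL libraries the members spanned a wide range of levels. Per kilobase of exon, which is the scale for comparing genes, Apod led with 3023 ± 67.0 CPM per kb (SD, n = 3). Ptgds followed with 1618 ± 192 and Car2 with 1258 ± 321 CPM per kb, and the ranges of these 2 overlapped. Anxa5 stood at 444 ± 115, Il33 at 301 ± 44.4, Serpinb1a at 265 ± 63.1 and Hopx at 168 ± 35.8 CPM per kb. Car2 did not overlap Anxa5, and Serpinb1a did not overlap Hopx, while Anxa5 overlapped Il33 and Il33 overlapped Serpinb1a. On dpi 2 Apod reached 18785 ± 4508 CPM per kb, and Serpinb1a became the lowest with 59.4 ± 14.6 CPM per kb. Counts of a member in a library ranged from 370 for Serpinb1a to 1494684 for Apod, so none of the values rests on a few reads.

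**Figure D1:**
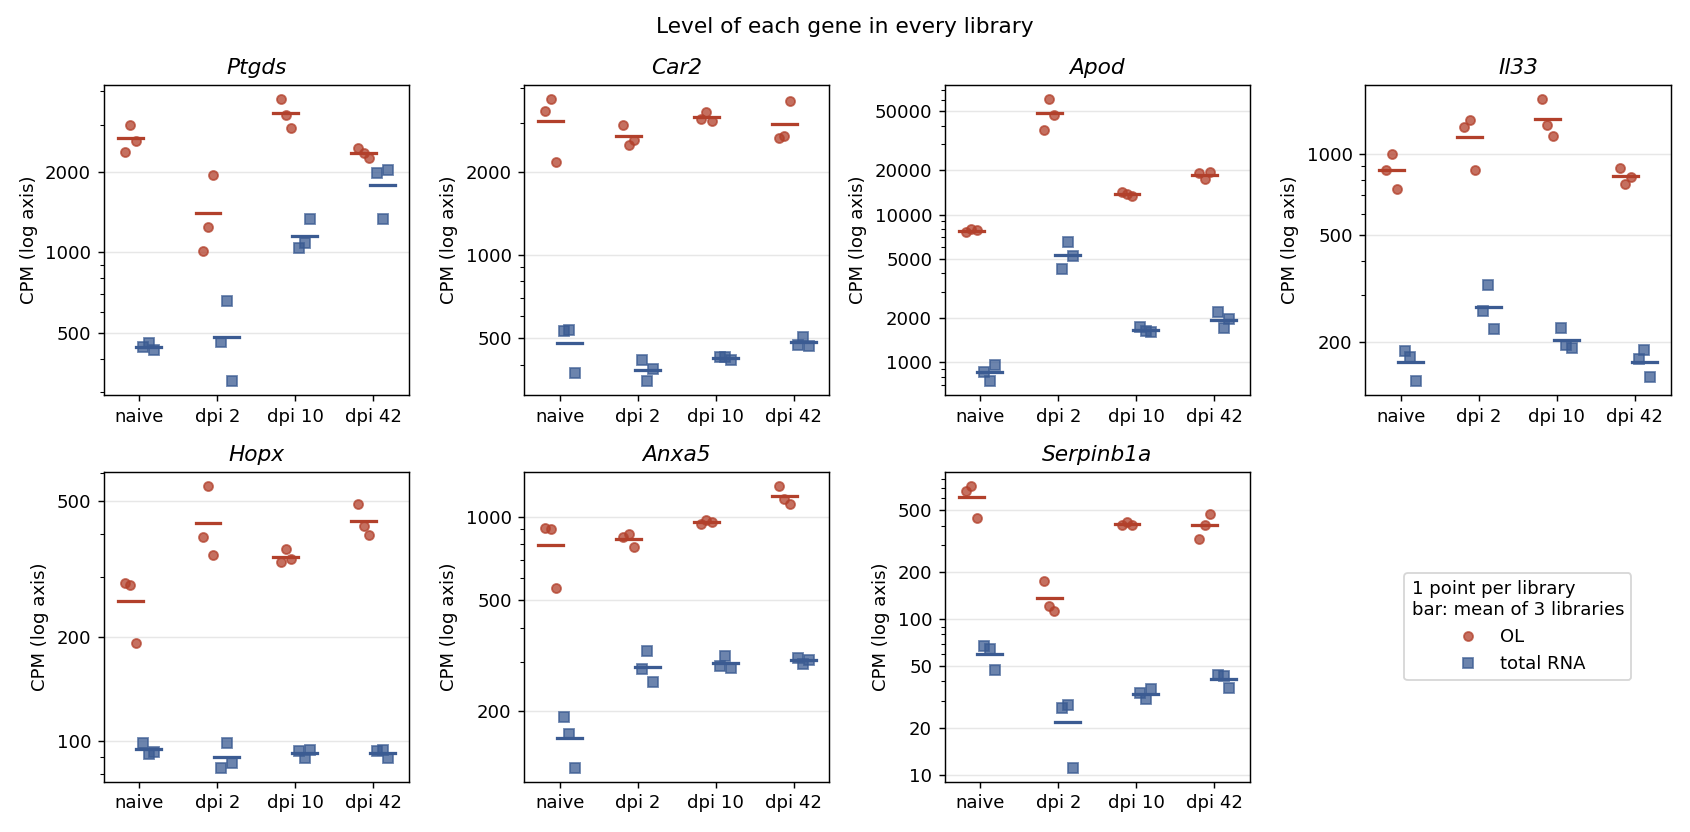
Level of each member in every library, in CPM on a log axis, by group (naive, dpi 2, dpi 10 and dpi 42). Circles are OL libraries, squares are total RNA libraries and bars are means of 3. OL and total RNA are far apart for 6 members throughout, while the Ptgds total RNA values climb from 430 to 457 CPM in naive cord to 1331 to 2034 CPM on dpi 42, close below the OL values.

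Enrichment in OL RNA was the first comparison, OL against total RNA of the same group. In naive cord all 7 members were enriched, from 1.43 (log2) for Hopx to 3.36 for Serpinb1a, with a median of 2.59. Of all tested genes 24.9% were called enriched and 30.5% depleted there, with a median of -0.27. All 7 were again enriched on dpi 2, where 24.8% of genes were enriched and 28.8% depleted, and on dpi 10, where the shares were 25.2% and 28.8%. On dpi 42, 6 of 7 were enriched, against 24.9% enriched and 28.9% depleted of all genes. Ptgds was the exception.

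Car2 and Apod held nearly the same enrichment in every group. Car2 ranged from 2.63 to 2.89 and Apod from 3.06 to 3.26 (log2). The difference from naive was at most 0.22 for Car2 (dpi 10, 95% interval -0.25 to 0.69) and -0.12 for Apod (dpi 10, -0.57 to 0.32), and none was called. Il33 (2.10 to 2.72) and Serpinb1a (2.63 to 3.62) varied more, and their differences from naive were not called either, the furthest being -0.73 for Serpinb1a on dpi 2 (-1.46 to 0.01). That value was called in 4 of 34 alternatives: it was -1.17 without OL library 1 of dpi 2, -1.12 without naive OL library 3, and -1.04 without total RNA library 3 of dpi 2, and it also passed without the 5 OL libraries high in astrocyte markers (-0.996). Hopx had its lowest enrichment in naive cord (1.43) and stood at 2.27 on dpi 2, 1.90 on dpi 10 and 2.24 on dpi 42. Ptgds enrichment was 2.59 (95% interval 2.10 to 3.08) in naive cord and 1.53 on both dpi 2 and dpi 10. On dpi 42 it was 0.41 (-0.05 to 0.87, edgeR adjusted p = 0.128), and it was called in 0 of 34 alternative analyses, in which it ranged from -0.10 to 0.51.

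**Figure D2:**
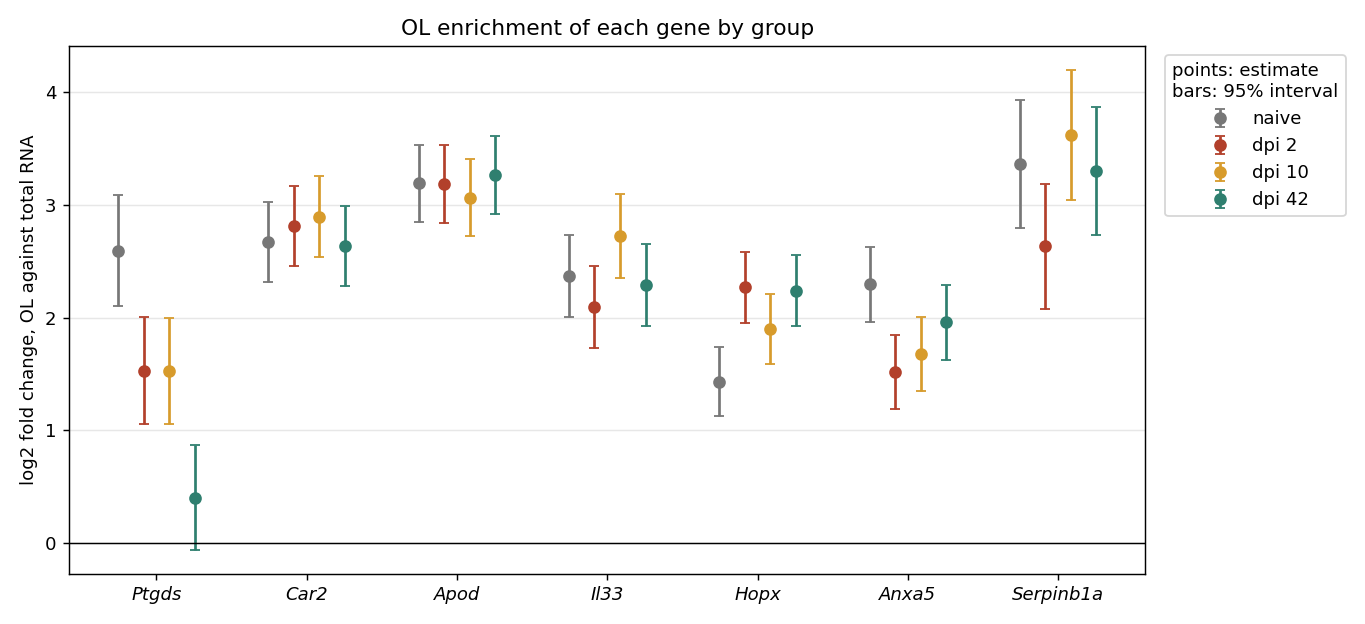
OL enrichment of each member (log2 fold change of OL against total RNA, with 95% intervals) in naive cord and on dpi 2, 10 and 42. The Ptgds point falls from 2.59 to 0.41, where its interval reaches 0, and the other 6 members stay between 1.43 and 3.62.

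Apod had the largest change. In naive OL libraries it stood at 7604, 7945 and 7818 CPM. On dpi 2 the 3 OL libraries held 37396, 60547 and 47283 CPM, and on dpi 10 they held 14234, 13840 and 13426 CPM. The dpi 42 OL libraries held 19089, 17376 and 19413 CPM. No pair of days overlapped, and the order of the days was naive, dpi 10, dpi 42, dpi 2. Apod rose 6.21-fold on dpi 2 (log2 2.64, edgeR adjusted p = 1.61e-10), 1.78-fold on dpi 10 (0.83, 0.000596) and 2.39-fold on dpi 42 (1.26, 4.01e-06). Without pool 2 of dpi 2, the highest library, the dpi 2 change was 2.44.

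Total RNA gave nearly the same picture for Apod. The naive total RNA libraries held 860, 750 and 958 CPM and the dpi 2 libraries 4305, 6502 and 5216 CPM. On dpi 10 they held 1724, 1637 and 1609 CPM, and on dpi 42 they held 1698 to 2181 CPM. Here, too, every injured library lay above the naive ones. The total RNA changes were 2.64, 0.95 and 1.19 (log2) on dpi 2, 10 and 42, all called. Apod enrichment in OL RNA differed from naive by -0.01 on dpi 2 (95% interval -0.45 to 0.44), which was not called. In tissue libraries, fewer cells of a type and less RNA per cell cannot be told apart, and this holds for each fall reported here.

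Serpinb1a fell most. The naive OL libraries held 667, 721 and 446 CPM, and the dpi 2 OL libraries held 175, 122 and 113 CPM. On dpi 10 the level was 406, 420 and 406 CPM, and on dpi 42 it was 326, 406 and 478 CPM. The dpi 2 libraries lay below all others, the dpi 10 libraries lay below naive, and dpi 42 overlapped both naive and dpi 10. Serpinb1a was 4.46-fold lower on dpi 2 (log2 -2.16, edgeR adjusted p = 1.16e-06). The changes of -0.57 on dpi 10 (adjusted p = 0.121) and -0.60 on dpi 42 (0.0706) did not pass, and were called in 3 and 6 of 34 alternatives, with -0.76 and -0.84 without naive OL library 3.

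In total RNA Serpinb1a was at 67.0, 64.6 and 47.3 CPM in naive cord. The dpi 2 total RNA libraries held 27.0, 28.1 and 11.2 CPM, a change of -1.43 (adjusted p = 0.000133). On dpi 10 they held 33.8, 30.7 and 35.8 CPM (-0.84, adjusted p = 0.0141), and on dpi 42 they held 36.3 to 43.7 CPM (-0.54, adjusted p = 0.139). All injured libraries were below all naive ones. The dpi 10 call was lost without total RNA library 1 of naive (-0.74) or library 2 of dpi 10 (-0.78). The lower naive OL value of 446 CPM belonged to library 3, which was high in astrocyte markers, and without the 5 such libraries the dpi 2 change in OL RNA was -2.28.

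Ptgds fell in OL RNA on dpi 2 and rose in total RNA on dpi 10 and dpi 42. In naive OL libraries it stood at 2382, 3008 and 2615 CPM, and on dpi 2 at 1009, 1242 and 1943 CPM. On dpi 10 the OL libraries held 3748, 3278 and 2921 CPM, and on dpi 42 they held 2463, 2362 and 2259 CPM. The dpi 2 libraries were below all others, and the naive range overlapped both dpi 10 and dpi 42. Ptgds fell by 0.93 on dpi 2 (log2, edgeR adjusted p = 0.00211), a call kept in 34 of 34 alternatives. The changes of 0.31 on dpi 10 (adjusted p = 0.373) and -0.18 on dpi 42 (0.605) were not called.

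The total RNA libraries of naive cord held 441, 457 and 430 CPM of Ptgds. On dpi 2 they held 463, 659 and 331 CPM, around the naive values. On dpi 10 they held 1036, 1080 and 1336 CPM, and on dpi 42 they held 1331, 1979 and 2034 CPM. Every library of the 2 later days stood above every naive and dpi 2 library. The total RNA change was 0.13 on dpi 2 (adjusted p = 0.695), 1.38 on dpi 10 (7.19e-05) and 2.01 on dpi 42 (2.14e-06), a 4.03-fold rise. The loss of Ptgds enrichment relative to naive was -1.06 on dpi 2, -1.07 on dpi 10 and -2.19 on dpi 42, with adjusted p of 0.0266, 0.0407 and 0.00031 in edgeR's interaction test. The dpi 42 value was called in 34 of 34 alternatives. With OL and total RNA of a pool as a block, the dpi 2 and dpi 10 values were -1.07 and -1.06 and not called. The dpi 2 value was -0.70 without pool 2, and the dpi 10 value, lost in 11 of 34 alternatives, was smallest at -0.94 without total RNA library 3 of dpi 10.

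The 8 leptomeningeal and perivascular fibroblast markers (Dcn, Lum, Col1a1 and others, among them Pdgfra, which also marks OL precursors) also moved in total RNA. They summed to 112 to 128 CPM in naive cord, 500 to 951 CPM on dpi 2, 2199 to 2456 CPM on dpi 10 and 546 to 900 CPM on dpi 42. None of the 8 was at 0 throughout a total RNA group. Their sum was highest on dpi 10, whereas the mean of Ptgds was highest on dpi 42, with libraries that overlapped those of dpi 10. Ptgds in total RNA was not tested between these days. In the OL libraries the sums were 51.2 to 95.5, 215 to 273, 533 to 614 and 212 to 275 CPM, and 1 of the 8 was at 0 in all 3 naive OL libraries. The part of these markers in the Ptgds rise was not tested. Microglia and macrophage markers also rose in total RNA, from 182 to 212 CPM in naive cord to 1253 to 1498 CPM on dpi 2. They summed to 3409 to 4666 CPM on dpi 10 and 1954 to 2951 CPM on dpi 42. Their part in the Ptgds rise was not tested either.

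**Figure D3:**
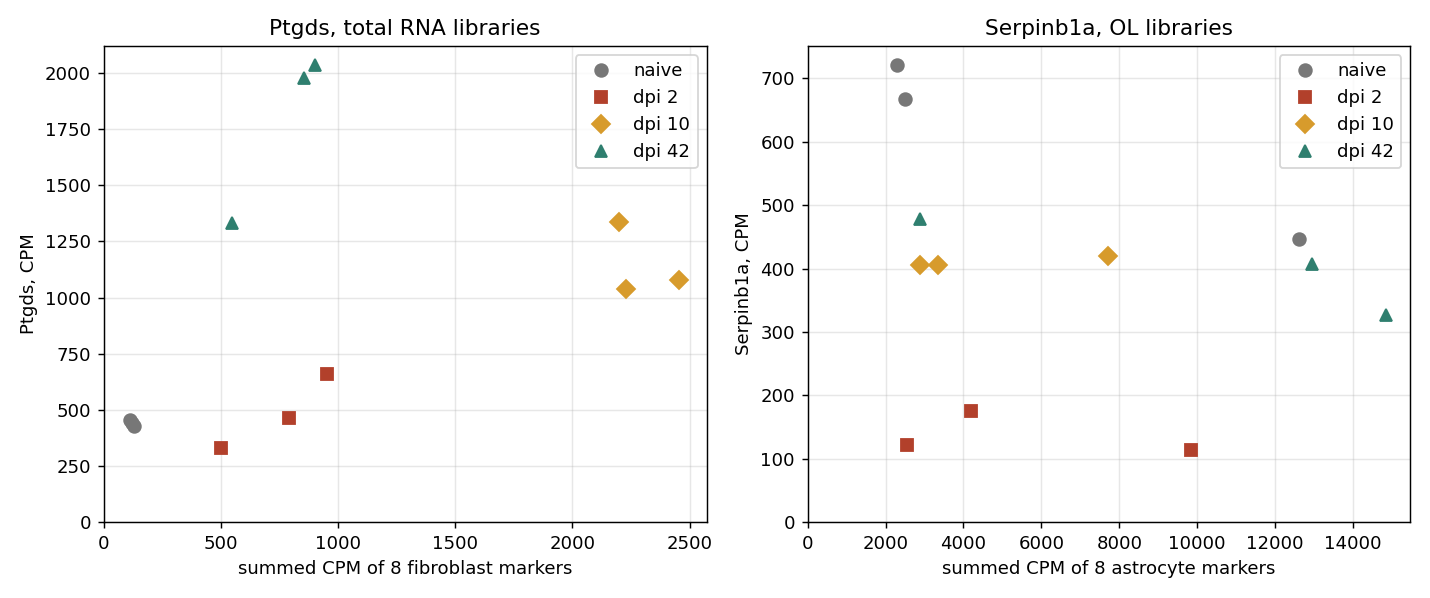
Left, Ptgds (CPM) against the sum of 8 fibroblast markers (CPM) in the 12 total RNA libraries; right, Serpinb1a (CPM) against the sum of 8 astrocyte markers (CPM) in the 12 OL libraries, with a symbol for each group. Ptgds in total RNA has its highest mean on dpi 42, at 546 to 900 CPM of fibroblast markers. The dpi 10 libraries hold 2199 to 2456 CPM of these markers, and their Ptgds values overlap those of dpi 42. The dpi 2 OL libraries are lowest in Serpinb1a at 2545 to 9834 CPM of astrocyte markers.

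Hopx rose in OL RNA on each day. It stood at 289, 284 and 192 CPM in naive OL libraries and at 393, 552 and 347 CPM on dpi 2. On dpi 10 the OL libraries held 331, 361 and 339 CPM, and on dpi 42 they held 488, 421 and 398 CPM. Every injured OL library was above every naive one. Hopx was 0.76 higher (log2, edgeR adjusted p = 0.00029) on dpi 2 and 0.77 higher (0.000344) on dpi 42, and both calls held in 34 of 34 alternatives. The dpi 10 change of 0.43 (adjusted p = 0.0445) was called in 16 of 34 alternatives, and was 0.26 without naive OL library 3.

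Hopx in total RNA held 83.6 to 98.6 CPM over all 12 libraries, and its changes of -0.08, -0.04 and -0.03 were not called. The gain in enrichment relative to naive was 0.83 on dpi 2 (adjusted p = 0.00863) and 0.80 on dpi 42 (0.0189). Without naive OL library 3, which was high in astrocyte markers and lowest in Hopx, the gains were 0.45 and 0.48 and neither was called. An antisense gene, Hopxos, shares 412 exon bases with Hopx on the opposite strand and is not in the count table. Strand use in the counting is not given in the sources used here, and without strand the reads of both genes cannot be told apart.

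Anxa5 rose late in OL RNA and early in total RNA. The naive OL libraries held 910, 903 and 554 CPM, with library 3 well below the others. On dpi 2 the OL libraries held 844, 866 and 775 CPM, on dpi 10 they held 939, 969 and 956 CPM, and on dpi 42 they held 1289, 1153 and 1105 CPM. The dpi 42 libraries were above all others. The OL change was 0.07 on dpi 2 (95% interval -0.25 to 0.39), 0.28 on dpi 10 (adjusted p = 0.237) and 0.58 on dpi 42 (edgeR adjusted p = 0.00539). Without naive OL library 3 the dpi 42 change was 0.32, and without the 5 OL libraries high in astrocyte markers it was 0.27, and neither was called.

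Total RNA Anxa5 was at 191, 166 and 126 CPM in naive cord and at 284, 328 and 256 CPM on dpi 2. It held 287 to 316 CPM on dpi 10 and 296 to 312 CPM on dpi 42. All injured total RNA libraries lay above naive. The changes were 0.85 (adjusted p = 0.00016), 0.89 (0.000126) and 0.92 (0.000181). Enrichment in OL RNA was 0.78 lower than naive on dpi 2 (-0.78, adjusted p = 0.0188), while the -0.61 on dpi 10 did not pass (adjusted p = 0.0917). With the pool as a block the dpi 10 value was -0.60 and was called, as it was in 12 of 34 alternatives, and without naive OL library 3 it was -0.94. On dpi 42 the difference from naive was -0.34 and was not called (adjusted p = 0.407 in edgeR's interaction test). It was called in 2 of 34 alternatives, among them the fit without naive OL library 3, where it was -0.70.

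Il33 had a middle course. The naive OL libraries held 871, 996 and 740 CPM, and the dpi 2 OL libraries held 1251, 1339 and 870 CPM. On dpi 10 they held 1595, 1273 and 1159 CPM, above all naive values, and on dpi 42 they held 886, 772 and 817 CPM, inside the naive range. Il33 rose by 0.63 on dpi 10 (log2, edgeR adjusted p = 0.0115). That call was lost without OL library 1 of dpi 10, where the change was 0.49. The dpi 2 change was 0.41 (0.06 to 0.76, adjusted p = 0.0594) and the dpi 42 change -0.07. The dpi 2 change was called in 6 of 34 alternatives. Among them were the fit with replicate numbers as a block (0.40), DESeq2 (0.45) and the fit without OL library 3 of dpi 2 (0.51).

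In total RNA Il33 rose on dpi 2, from 186, 176 and 144 CPM to 260, 327 and 223 CPM (0.68, adjusted p = 0.00283). The total RNA change on dpi 10 was 0.27 (adjusted p = 0.243), and was called in 4 of 34 alternatives. On dpi 42 the libraries held 148 to 186 CPM, close to the naive values.

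Car2 was not called in OL RNA or in total RNA on any day. The naive OL libraries held 3305, 3664 and 2175 CPM, and the injured OL libraries ranged from 2491 to 3606 CPM with every day overlapping naive. The OL changes were -0.18 on dpi 2 (95% interval -0.52 to 0.15, edgeR adjusted p = 0.398), 0.05 on dpi 10 and -0.03 on dpi 42. Total RNA ranged from 371 to 534 CPM in naive cord and from 349 to 504 CPM after injury, with changes of -0.32, -0.18 and 0.01. Without total RNA library 3 of naive the dpi 2 change was -0.48 and was called. Without naive OL library 3, at 2175 CPM the lowest, the dpi 2 OL change was -0.44 and was called.

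Across the list, OL RNA on dpi 2 held 2 members called higher (Apod, Hopx) and 2 lower (Ptgds, Serpinb1a) of 7, where 18.4% of all genes were called higher and 20% lower. On dpi 10, 3 were higher (Apod, Il33, Hopx) and none lower, against 9.62% and 8.59% of all genes. On dpi 42, 3 were higher (Apod, Hopx, Anxa5) and none lower, against 16.2% and 16.9%. The member medians were 0.07, 0.31 and -0.03 (log2), and those of all genes near 0. In total RNA 3 members were called higher on dpi 2 (Apod, Il33, Anxa5) and 1 lower (Serpinb1a), where the shares of all genes were 16.4% and 20.8%. The dpi 10 counts were 3 higher (Ptgds, Apod, Anxa5) and 1 lower (Serpinb1a), against 13.9% and 18.2%. On dpi 42 Ptgds, Apod and Anxa5 were higher and none lower, against 10.4% and 12.1%.

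For the test of differential OL enrichment, 1 member gained and 2 lost on dpi 2, where 8.06% of all genes gained and 6.03% lost. On dpi 10, 1 member lost (4.57% gained and 3.09% lost). On dpi 42, 1 gained and 1 lost (4.37% and 3.47%). The direction of the all-gene split depends on the scaling reference, as described in the closing section. Between injured days in OL RNA, Ptgds (1.25) and Serpinb1a (1.58) rose and Apod (-1.81) fell from dpi 2 to dpi 10, where 11.7% of genes rose and 10.6% fell. From dpi 10 to dpi 42 only Il33 fell (-0.70), against 3.28% higher and 3.9% lower. From dpi 2 to dpi 42, Ptgds (0.76), Anxa5 (0.51) and Serpinb1a (1.56) rose and Apod (-1.38) fell, against 8.91% and 8.66%. Of these, the Il33 fall was not called without OL library 1 of dpi 10 (-0.62) or library 2 of dpi 42 (-0.70). The later rise of Ptgds was not called without OL library 1 (0.58) or 2 (0.68) of dpi 2 or with replicate numbers as a block (0.68). That of Anxa5 was not called without OL library 3 of dpi 2 or the dpi 42 library without a number (0.47 for both). The Il33 difference of -0.48 from dpi 2 to dpi 42 was not called, but was called in 13 of 34 alternatives. Among them were DESeq2 (-0.50) and the fit with replicate numbers as a block (-0.46).

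**Figure D4:**
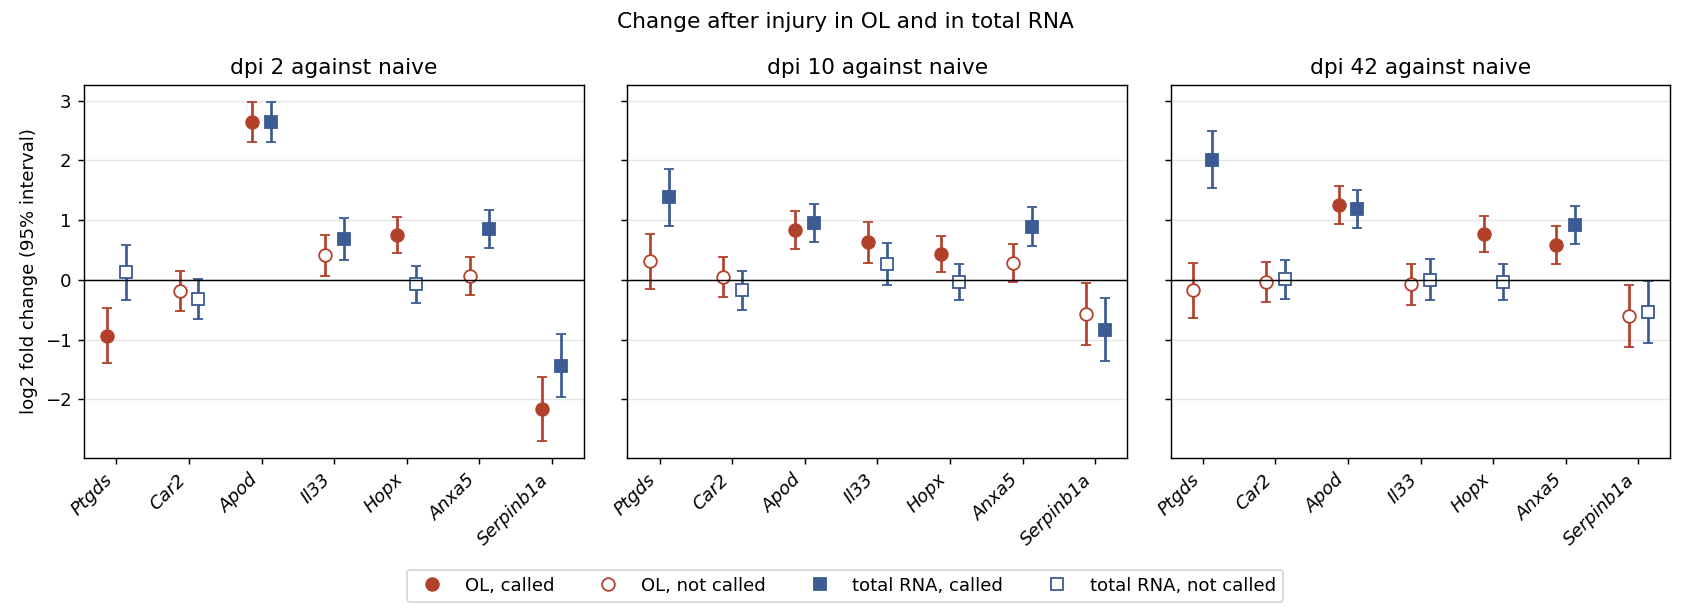
Change of each member against naive in OL RNA and in total RNA on dpi 2, 10 and 42 (log2 fold change with 95% intervals; filled symbols are called at an adjusted p under 0.05). Apod is at 2.64 in both kinds of RNA on dpi 2, and Ptgds on dpi 42 is at -0.18 in OL RNA and 2.01 in total RNA.

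Klk6, a protease gene that marks the other mature subtype, was set beside Ptgds because both marks are used to tell subtypes apart. The ratio of Ptgds to Klk6 CPM was 1.47, 1.87 and 3.56 in naive OL libraries and 0.232, 0.244 and 0.520 on dpi 2. The dpi 10 ratios were 1.02, 0.946 and 0.849, and those of dpi 42 were 0.672, 0.726 and 0.496. No injured OL library reached the naive range. Klk6 itself rose by 1.73, 1.41 and 1.53 (log2) in OL RNA on the 3 days. In total RNA the ratio was 2.84, 3.56 and 6.11 in naive cord and 1.07, 1.48 and 0.856 on dpi 2. The dpi 10 libraries held 4.07, 4.86 and 5.37 and the dpi 42 libraries 5.03, 6.92 and 7.21. Only the dpi 2 ratios lay below the naive range in total RNA, and dpi 42 reached above it.

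The lists below are read against the shares of all genes given above, which were 18.4% higher and 20% lower in OL RNA on dpi 2. Among 12 other genes linked to mature OL subtypes, 3 were called higher and 6 lower on dpi 2 (median -0.25, log2). Klk6 was the highest (1.73) and Jph4, a junctophilin, the lowest (-3.47). The dpi 10 count was 2 higher and 3 lower (median 0.04), and the dpi 42 count 3 higher and 4 lower. Klk6 stayed highest, and Grm3, a glutamate receptor, was lowest on both later days (-1.47 and -1.77).

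Compact myelin and OL identity genes fell in part. Of 12, 6 were lower on dpi 2 and 1 higher (median -0.32), with Cldn11, a tight junction protein of myelin, highest at 1.32. On dpi 10 only Cldn11 was called (0.51), and Fa2h was lowest at -0.39, not called. By dpi 42, 5 were lower and none higher (median -0.31), with Cldn11 again highest at 0.09, not called. Of 10 disease-associated OL genes, 8 were higher and none lower on each day, with Klk8, a protease gene, at 9.45, 8.05 and 6.46. Sgk1 was the lowest of them (-0.36, -1.17 and -1.50) and was not called on any day.

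Genes of the prostaglandin D2 pathway gave the surroundings of Ptgds. In OL RNA 5 of 7 were higher and 1 lower on dpi 2 (median 1.27), with 3 and 1 on dpi 10 (median 2.64) and 1 and 1 on dpi 42. Of the 7, 3 had 0 counts in all naive OL libraries, so these medians draw on genes near 0. The summed level did not rise. It was 152 to 228 CPM in naive OL libraries, 165 to 214 CPM on dpi 2, 155 to 173 CPM on dpi 10 and 135 to 177 CPM on dpi 42. Pla2g4a, which frees arachidonic acid, was the lowest gene throughout (-1.03, -0.91 and -1.36). Hpgds, the other prostaglandin D2 synthase, was at 0.612 to 1.43 CPM in naive OL RNA and at 4.66 to 6.74 CPM on dpi 10 (log2 change 2.64). Its total RNA level went from 5.54 to 6.61 CPM in naive cord to 45.9 to 57.8 CPM on dpi 10. The receptor Ptgdr and the cyclooxygenase Ptgs2, highest in this list on dpi 10 and on the other days, had 0 counts in all naive OL libraries and at most 17 and 33 after injury, so no fold is given.

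Il33 signals through Il1rl1, which had 0 to 3 counts in the OL libraries and at most 48 in total RNA. Its co-receptor Il1rap was lower in OL RNA on dpi 42 (-1.22), with 275 to 402 CPM in naive libraries and 104 to 193 CPM on that day. Irak4, a kinase of the same pathway, rose by 0.92, 0.87 and 0.80. The 5 genes of this list gave 2 higher and 0 lower on dpi 2, 1 and 1 on dpi 10 (Traf6 lower, -0.56) and 2 and 2 on dpi 42. Of 5 other lipocalins tested, relatives of Ptgds and Apod, 2 were higher on each day. Lcn2 went from at most 0.306 CPM in naive OL RNA to 7.29 to 73.6 CPM on dpi 2, and Rbp4 from at most 0.294 CPM to 2.99 to 3.76 CPM on dpi 42. The listed lipocalins summed to 17.2, 7.98 and 73.6 CPM in OL libraries 1, 2 and 3 of dpi 2. Library 3 was also high in astrocyte markers. In total RNA of dpi 2 the sum was 63.0 to 90.6 CPM. Apom and Ambp had at most 8 counts in any OL library.

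The family of Car2, 15 other carbonic anhydrases, had 3 lower on dpi 2 (median -0.69) and no call on dpi 10 or dpi 42. Car14 went from 362 to 397 CPM in naive OL RNA to 158 to 231 CPM on dpi 2 (-1.04). The extremes of this list, Car1, Car6, Car9 and Car12, had at most 33 counts in an OL library. Of 10 other annexins tested, 6 were higher on dpi 2, 4 on dpi 10 and 6 on dpi 42, with none lower (medians 1.52, 0.59 and 1.63). Anxa1 was highest, with at most 1 count in naive OL libraries and 1.38 to 6.32 CPM on dpi 2. Anxa2 went from 7.53 to 17.4 CPM in naive OL RNA to 141 to 288 CPM on dpi 2 (4.17). The 10 annexins summed to 56.9 to 130 CPM in naive OL libraries and 263 to 545 CPM on dpi 2. Their sums in total RNA were 315 to 346 CPM and 627 to 784 CPM. In both groups the highest OL sum was that of library 3, which was high in astrocyte markers.

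Among 9 other clade B serpins, the family of Serpinb1a, 1 was higher on dpi 2, 2 higher and 1 lower on dpi 10, and 3 higher and 1 lower on dpi 42 (medians near 0). The extremes, Serpinb8, Serpinb6b, Serpinb1c and Serpinb2, had at most 51 counts in an OL library. Serpinb1b, a near copy of Serpinb1a, was at 2.50 to 3.53 CPM in naive OL RNA and at 67.0 to 86.8 CPM in total RNA, an enrichment of -4.57 against 3.36 for Serpinb1a. Reads that fit both copies could have been split between them, and how the authors' counting treated such reads is not given in the sources used here.

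Genes whose levels tracked the members most closely over the 12 OL libraries were named by the highest Pearson correlation of log2 CPM among genes at a mean of at least 1 CPM, as a description. All libraries share the 4 groups, so groups and depth enter these values. Apod was most like Rps12 (0.990), Mvp and Pfn1, and Serpinb1a was most like Spg20 (0.992), Mmp15 and Pcsk6. Hopx was most like Tmem50a (0.972), Ptgds most like Ppt1 (0.946), Lgmn and Npr1, and Il33 most like Ndst1 (0.945). Car2 was most like Pacsin1 (0.922) and Anxa5 most like Pir (0.912). Between members, Apod and Serpinb1a stood at -0.942, Ptgds and Apod at -0.739, Apod and Hopx at 0.723, and Ptgds and Serpinb1a at 0.715.

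By position (GRCm38, GENCODE M21), the members lie apart: Ptgds at chr2:25466709-25470046, Car2 at chr3:14886273-14900770, Apod at chr16:31296192-31314808, Il33 at chr19:29925114-29960718, Hopx at chr5:77086988-77115121, Anxa5 at chr3:36448923-36475894 and Serpinb1a at chr13:32842092-32851185. Car2 and Il33 are on the plus strand and the others on the minus strand. All are protein-coding, with 3 exon blocks in Hopx and 13 in Anxa5, and the values above count reads over all exons of a gene, so they do not separate isoforms.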

How the data were processed

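RNA of 12 OL and 12 total RNA libraries was sequenced. Per the paper's methods and the processing notes in the labels, the authors checked reads with FastQC 0.10.1, aligned them to mm10 with STAR and obtained gene counts with HTSeq 0.10.0. The deposited values are these raw counts, not normalized. Options of the counting, strand included, are not given in the sources used here. Groups were taken from the descriptions in the labels. The members and the gene lists were chosen with earlier results of these data known.

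The deposited counts were fitted with edgeR 4.0.16 (R 4.3.3), after a filter of 10 counts over all libraries, which left 17167 genes. Scaling was by TMM, and the quasi-likelihood fit estimated 8 group means. Enrichment compares OL with total RNA in a group, change compares an injured group with naive, and differential OL enrichment is the interaction of both. P-values were adjusted by Benjamini-Hochberg over the 17167 genes in each of 16 comparisons and called at an adjusted p under 0.05. CPM are TMM-scaled, and log2 CPM for correlations used a prior count of 2. P-values measure the spread between libraries within the groups, each library from a pool of 2 mice. The main fit took OL and total RNA libraries of a pool as independent. Depth was 25840127 to 32987841 counts (median 29062636). Scripts were tested on simulated data. Named were the 7 members, the highest and lowest gene of each list by OL change, list genes that are paralogs, receptors or markers bearing on a member, and the 3 most correlated genes. A listed gene that this rule would name is not reported here. Alternatives were DESeq2 1.42.0, other scalings and filters, a fit to the groups compared, a replicate block, and omission of a pool or of single libraries. For enrichment and differential enrichment the block pairs OL with total RNA of a pool, which come from the same animals. For changes it uses replicate numbers and leaves out the dpi 42 libraries without a number. Same-pool deviations correlated at 0.041 to 0.137 in naive, 0.088 to 0.108 on dpi 2, 0.024 to 0.063 on dpi 10 and -0.011 to 0.020 on dpi 42, where the pairing rests on column names.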

Additional observations from a re-analysis of the deposited data

Results flagged for a closer look

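Differential OL enrichment, the difference between the injury response in OL RNA and that in total RNA, passed the interaction test for 3 members. Ptgds lost enrichment on dpi 2 (-1.06), dpi 10 (-1.07) and dpi 42 (-2.19). The dpi 42 value was called in 34 of 34 alternatives, with a range of -2.43 to -2.08. The dpi 2 value was called in 28 and the dpi 10 value in 23, and the dpi 2 value was -0.70 and not called without pool 2, which held Y-linked counts. Hopx gained enrichment on dpi 2 (0.83) and dpi 42 (0.80). These were called in 26 and 23 of 34 alternatives, and were 0.41 without OL library 2 of dpi 2 and 0.39 without the 5 OL libraries high in astrocyte markers. Anxa5 lost enrichment on dpi 2 (-0.78), called in 30 of 34 alternatives, and the value was -0.71 without pool 2 of dpi 2, where it was not called.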

How the results depend on the processing

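Of 112 member comparisons, 62 were called, 50 of them in all 34 alternatives and 12 lost in 1 or more. Among 3808 single values, 3673 kept their call, 58 gained one and 77 lost one. In 134 cases the sign changed for a value called in neither fit, the largest 0.27 in size. For differential OL enrichment on dpi 2, 3 members were called in the main analysis, 0 when only the groups compared were fitted in edgeR (3 at an unadjusted p under 0.05, and 3 by DESeq2) and 1 without pool 2 of dpi 2. On dpi 10, 1 was called, and 2 with library sizes alone, with DESeq2, with TMM set to naive total RNA library 1 as its reference, and without the 5 OL libraries high in astrocyte markers. On dpi 42, 2 were called, and 1 with that TMM reference. From dpi 10 to dpi 42, 1 was called, 0 with only the groups compared (5 at an unadjusted p under 0.05, and 1 by DESeq2) and 2 without pool 2. From dpi 2 to dpi 42, 4 were called and 2 with only the groups compared. Leaving out single libraries gave 1 to 3 for OL change on dpi 10, 1 to 4, 0 to 2 and 1 to 2 for differential enrichment on dpi 2, 10 and 42, and 0 to 1 from dpi 10 to dpi 42, where the edgeR fits with 0 calls held 2 or 3 members at an unadjusted p under 0.05. The cause of these shifts was not tested.

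The replicate block differed by comparison. For enrichment and differential enrichment it paired OL and total RNA of a pool. This ended the calls of Ptgds differential enrichment on dpi 2 (-1.07) and dpi 10 (-1.06) and gave a call to that of Anxa5 on dpi 10 (-0.60). For changes it used replicate numbers and left out the dpi 42 libraries without a number. There the rise of Ptgds from dpi 2 to dpi 42 (0.68) lost its call. Il33 gained calls in OL RNA on dpi 2 (0.40) and from dpi 2 to dpi 42 (-0.46). From dpi 10 to dpi 42 the block by number called 389 genes against 1233. Replicate numbers of different groups do not mark shared animals, so that block does not stand for a pairing. The TMM reference and the omission of the 5 libraries were alternatives chosen after the data were seen, and the latter leaves 1 OL library on dpi 42, assumed to vary like the other groups. Scaling moved the share of all calls that were higher. With library sizes alone it was 24.4%, 18.5%, 19.8% and 22.6% for OL enrichment in the 4 groups (main 45%, 46.2%, 46.7% and 46.3%), 61.6%, 70.8% and 62.3% for OL change (47.9%, 52.9% and 49.1%), 63.8%, 62.5% and 65.4% for total RNA change (44%, 43.3% and 46.2%), and the all-gene median of enrichment fell to between -0.80 and -0.69. With the TMM reference it was 26.4%, 18.4% and 18.1% for differential enrichment (57.2%, 59.7% and 55.7%), with medians of -0.17, -0.15 and -0.18 against 0.06, 0.08 and 0.04, 56.1%, 60.2% and 64.7% for total RNA change, and 40.4% and 37.2% for OL change on dpi 10 and 42. Without the 5 libraries it was 33.8%, 46.4% and 39% for differential enrichment. With only the groups compared, calls numbered 3967 against 6586 and 3221 against 5681 for OL change on dpi 2 and 42, 8877 against 5519 and 6256 against 3857 for total RNA change on dpi 10 and 42, 2323 against 3826, 60 against 1233 and 732 against 3015 between injured days, and 2336 against 1314 for differential enrichment on dpi 10. DESeq2 called 1954 genes from dpi 10 to dpi 42, and without the 5 libraries 542 were called there, 3901 against 2419 and 2232 against 1314 for differential enrichment on dpi 2 and 10.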
